A study of Mus musculus with 24 samples.

Results

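The genes described here encode the proteins of 4 kinds of cell junction: adherens junctions, desmosomes, tight junctions and gap junctions. They were chosen by symbol, and all 36 were found among the 24007 genes of the deposited table. They comprise 7 adherens junction genes, 10 desmosomal genes, 9 claudins, 8 other tight junction genes and 2 connexins. Jup, whose product plakoglobin also sits in desmosomes, was counted with the adherens junction genes, and Epcam, an adhesion protein that binds claudins, with the other tight junction genes.

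The study sequenced RNA from sorted mammary epithelium of FVB/N females that lack Id4 (ID4 KO) or are wild type (WT), to ask what the loss of this helix-loop-helix inhibitor of transcription factors changes. The 6 groups were KO basal, WT basal, KO luminal progenitor (LP), WT LP, KO mature luminal (ML) and WT ML cells, with 4 biological replicates each. All mice were 10 to 12 weeks old and in estrus, none is labelled as treated, and each replicate pooled the glands of 4 to 8 mice. The sources used here do not give the part of Id4 that the KO line lacks, nor whether the WT mice were littermates. Live lineage-negative cells were sorted by flow cytometry on CD24, CD29 and CD61, and the RNA was amplified before sequencing. Basal cells are the contractile outer layer of the mammary duct, LP cells the luminal layer that can give rise to milk-secreting cells, and ML cells the luminal layer that carries hormone receptors.

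Library totals ran from 3098433 to 7246445 counts, at which 3 counts correspond to 0.382 to 0.966 CPM (counts rescaled so that libraries of unequal depth can be compared). Values are CPM, given in the order of replicates 1 to 4, and comparisons are log2 differences ± SE from edgeR with the p-value adjusted over all genes tested. The sorts carried their labels: Krt5, a basal keratin, stood at 450.2 to 1086 CPM in basal libraries and at most 42.6 CPM in luminal ones. A list of 12 LP markers summed to 6013 CPM in WT basal replicate 2 and to 1949 CPM in KO basal replicate 2, against 287 to 812 CPM in the other 6 basal libraries and 6254 to 19339 CPM in LP. Csn3, 1 gene of that list, held 3846 CPM of the sum in WT basal replicate 2 and 956 CPM in KO basal replicate 2. In LP libraries it held 3971 to 14570 CPM. Endothelial markers summed to 310 CPM in KO basal replicate 3 and to at most 145 CPM in the other basal libraries. Counts of calls are also given without these 3 basal libraries. In KO ML replicate 2 the LP markers summed to 2118 CPM, against 276 to 1080 CPM in the other ML libraries. A list of 12 ML markers summed there to 5782 CPM, against 8015 to 10534 CPM in the other ML libraries. The part of LP RNA in the KO ML values was not tested. Id4 itself stood at 10.25, 1.12, 10.95 and 0.931 CPM in KO basal libraries, against 86.2, 13.3, 28.8 and 38.7 CPM in WT basal libraries, and at most 1.38 CPM in luminal ones. In such bulk samples fewer cells of a type and less RNA per cell cannot be told apart.

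Classical cadherins join neighbouring cells at adherens junctions, where their tails bind beta-catenin or plakoglobin and, through alpha-catenin, the actin cytoskeleton, while p120-catenin keeps them at the surface. Desmosomes tie keratin filaments together through desmogleins and desmocollins outside the cell and plakophilins, plakoglobin and desmoplakin inside it. Claudins and occludin form the tight junctions that seal the luminal layer and set which ions pass between its cells, and connexins form the channels of gap junctions. In the mammary gland E-cadherin marks luminal cells and P-cadherin the basal layer.

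The 36 genes lie on 15 chromosomes of the mouse build mm10, and 6 of them, including Cdh2 and the desmosomal cadherins, lie on chromosome 18. With no other protein-coding gene between them lie Cldn4 and Cldn3 (39279 bases apart), Ocln and Marveld2 (43238 bases), Dsc3 and Dsc2 (28281 bases), and Dsg3 and Dsg2 (10614 bases). RefSeq promoter windows of the same build (GRCm38.p6), from 250 bases before the start of the gene to 50 after it, were found for 21 of the 36 genes, with 31 windows in all. Because ID4 holds back E proteins, which bind the E-box CANNTG, and because the Snail and ZEB repressors of epithelial genes bind its form CAGGTG, these letters were searched on both strands. Every CAGGTG is also a CANNTG.

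CANNTG was found in 21 of the 31 windows (67.7%) and in 72.3% of all 32851 promoter windows. CAGGTG was found in 14 of the 31 windows (45.2%) and in 20.2% of all windows. CAGCTG, the palindromic E-box, was found in 4 windows (12.9%, and 16.3% of all), and the letters AACCNGGTT in 0 (0.3% of all). Counted by gene, CAGGTG was found for 11 of 21 members (52.4%) and for 6098 of 27025 genes (22.6%). It was found for 7 of the 10 members with a window that were lower in WT basal than in WT LP cells, 2 of the 3 that were higher and 2 of the 8 that were not called. A match describes the letters of the window and does not show that a factor binds there.

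The 5 windows below are examples from genes called between basal and LP cells in WT: Cldn4, Epcam and Gjb2 were lower in basal cells, and Dsp and Gja1 were higher. Each of the lower examples holds CAGGTG. The windows of Ctnnd1, Cgn and Cldn1, which were also called lower, hold none and are not shown. Each runs 5′ to 3′ on the strand of its gene from 250 bases before the start to 20 after it, and capitals mark CAGGTG or its complement CACCTG.
Cldn4: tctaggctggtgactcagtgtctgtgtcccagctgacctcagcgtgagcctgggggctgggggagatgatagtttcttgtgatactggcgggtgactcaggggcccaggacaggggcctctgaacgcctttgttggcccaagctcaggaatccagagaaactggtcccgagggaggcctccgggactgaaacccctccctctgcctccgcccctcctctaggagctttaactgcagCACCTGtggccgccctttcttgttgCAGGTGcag
Epcam: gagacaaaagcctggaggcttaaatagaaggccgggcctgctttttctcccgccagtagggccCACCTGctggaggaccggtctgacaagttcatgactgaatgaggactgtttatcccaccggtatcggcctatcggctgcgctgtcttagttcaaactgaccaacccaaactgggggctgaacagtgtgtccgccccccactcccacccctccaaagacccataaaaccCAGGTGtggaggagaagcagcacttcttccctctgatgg
Gjb2: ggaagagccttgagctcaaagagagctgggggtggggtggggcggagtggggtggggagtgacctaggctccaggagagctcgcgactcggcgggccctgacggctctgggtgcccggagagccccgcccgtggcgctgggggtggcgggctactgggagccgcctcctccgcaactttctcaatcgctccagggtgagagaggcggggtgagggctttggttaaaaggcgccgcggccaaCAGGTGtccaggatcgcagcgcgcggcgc
Dsp: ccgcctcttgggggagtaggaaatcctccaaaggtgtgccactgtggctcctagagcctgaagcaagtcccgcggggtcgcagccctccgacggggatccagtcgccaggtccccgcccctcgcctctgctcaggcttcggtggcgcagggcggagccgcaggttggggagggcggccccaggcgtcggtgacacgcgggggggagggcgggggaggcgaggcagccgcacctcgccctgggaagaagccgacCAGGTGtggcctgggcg
Gja1: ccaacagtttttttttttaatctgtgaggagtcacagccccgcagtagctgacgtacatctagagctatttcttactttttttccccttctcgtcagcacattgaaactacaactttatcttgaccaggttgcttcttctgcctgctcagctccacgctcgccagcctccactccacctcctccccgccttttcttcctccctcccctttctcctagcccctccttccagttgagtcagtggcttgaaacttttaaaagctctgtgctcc
The windows lie at chr5:134946915-134947184 (minus strand) for Cldn4, chr17:87635729-87635998 (plus strand) for Epcam, chr14:57104683-57104952 (minus strand) for Gjb2, chr13:38151044-38151313 (plus strand) for Dsp and chr10:56377050-56377319 (plus strand) for Gja1. The Cldn4 window held the letters 14 bases before and 11 bases after the start, the Epcam window 187 and 19 bases before it, the Gjb2 window 9 bases before it and the Dsp window 3 bases after it. The Gja1 window held none, and a single CANNTG 23 bases before the start.

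Basal and luminal cells held different members of the junction families. In WT cells 8 of the 35 members tested were higher in basal than in LP cells, where 9.12% of the 12771 genes tested were, and 14 were lower, where 6.68% were. Against WT ML cells 7 members were higher in basal cells (14% of genes) and 13 were lower (10.6% of genes). Between WT LP and WT ML cells 3 members were higher in LP (6.62% of genes) and 6 were lower (4.89% of genes). The median size of the log2 difference over the members was 2.42 between basal and LP cells, 1.43 between basal and ML cells and 0.56 between LP and ML cells, and over all genes 0.62, 0.78 and 0.55. Dsg3 was too low to be tested in any of these comparisons.

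**Figure D1:**
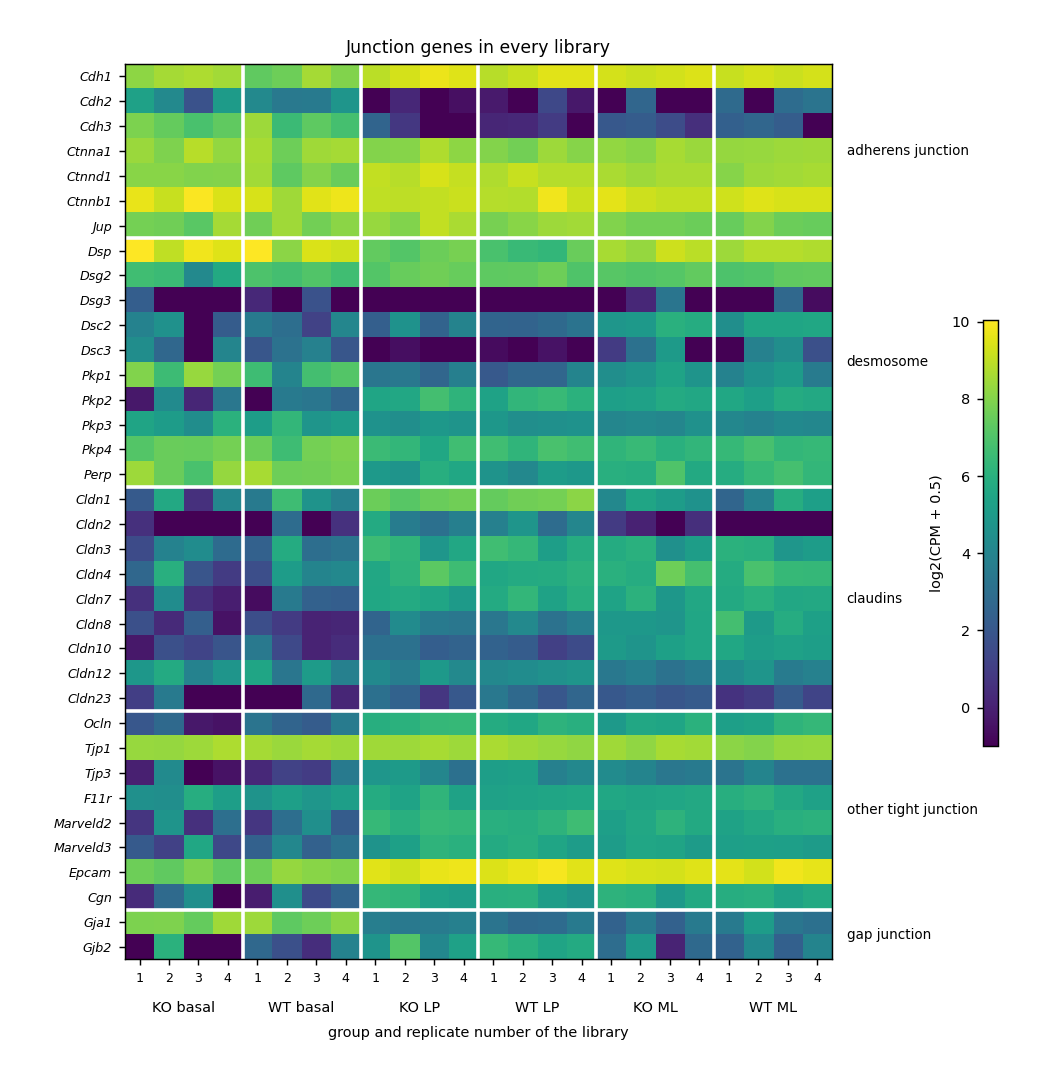
Levels of the 36 junction genes in the 24 libraries, as log2(CPM + 0.5), with genes ordered by role down the page and libraries by group across it. Cdh3 and Gja1 are higher in the 8 basal libraries than in the 16 luminal ones, and Cldn7, Ocln, Marveld2 and Cgn are higher in the 16 luminal ones.

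Among the adherens junction genes the populations differed most in the cadherins. Of the 7 genes 2 were higher in WT basal than in WT LP cells and 2 were lower, and against WT ML cells 1 was higher and 1 was lower. Cdh3, which encodes P-cadherin and lies at chr8:106510891-106557297, stood at 237, 173, 116 and 163 CPM in KO basal libraries and 342, 91.6, 159 and 109 CPM in WT basal libraries. In luminal libraries it stood at 0 to 5.38 CPM in KO and 0 to 5.78 CPM in WT. Every basal library lay above every luminal one, with a log2 difference of 8.07 ± 0.92 against LP (edgeR adjusted p = 2.01e-05) and 5.60 ± 0.78 against ML (edgeR adjusted p = 8.02e-05) in WT cells. Several luminal libraries held no Cdh3 reads, so the size of the fitted difference rests on few counts.

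Cdh1, which encodes E-cadherin and lies at chr8:106603351-106670246, stood at 289, 378, 415 and 364 CPM in KO basal and 162, 194, 380.1 and 251 CPM in WT basal libraries. In LP it stood at 486, 644, 836 and 725 CPM in KO and 471, 551, 741 and 755 CPM in WT libraries, and in ML at 577 to 702 CPM in KO and 563 to 655 CPM in WT libraries. It was present in all basal libraries at a lower level than in luminal ones, and the WT basal and WT ML libraries did not overlap. In WT cells it was 2.49-fold lower in basal than in LP cells (log2 -1.32 ± 0.27, edgeR adjusted p = 0.00283) and 2.38-fold lower than in ML cells (log2 -1.25 ± 0.27, edgeR adjusted p = 0.00266).

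Cdh2, which encodes N-cadherin, stood at 40.02, 17.9, 2.90 and 33.3 CPM in KO basal and 18, 10.5, 10.8 and 26.5 CPM in WT basal libraries. It was higher in WT basal than in WT LP cells (log2 4.63 ± 1.13, edgeR adjusted p = 0.00994), where it reached at most 2.10 CPM. The difference between WT basal and WT ML cells did not pass (log2 1.58 ± 0.95, edgeR adjusted p = 0.251), and 3 WT ML libraries held 6.63, 6.91 and 9.06 CPM. In KO cells Cdh2 was called higher in basal than in ML cells, but that call held in only 5 of 18 alternatives. Ctnnd1, p120-catenin, averaged 262 ± 13.0 CPM in KO basal, 241 ± 94.4 CPM in WT basal, 548 ± 84.2 CPM in KO LP and 475 ± 60.6 CPM in WT LP cells (SD, n = 4 each). It was lower in basal than in LP cells in both genotypes, with log2 -0.99 ± 0.20 in KO (edgeR adjusted p = 0.00288) and -0.95 ± 0.25 in WT cells (edgeR adjusted p = 0.0169). The WT call did not pass without WT basal replicate 4 or without WT LP replicate 2.

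Beta-catenin (Ctnnb1), alpha-catenin (Ctnna1) and plakoglobin (Jup) did not pass in any comparison of populations in either genotype. Ctnnb1 ranged over the 24 libraries between 355 and 1027 CPM. Ctnna1 ranged between 193 and 461 CPM and Jup between 151 and 532 CPM. The log2 difference between WT basal and WT LP cells was 0.18 ± 0.28 for Ctnnb1 (95% interval -0.42 to 0.78), 0.32 ± 0.24 for Ctnna1 (95% interval -0.18 to 0.82) and -0.17 ± 0.24 for Jup (95% interval -0.69 to 0.34).

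**Figure D2:**
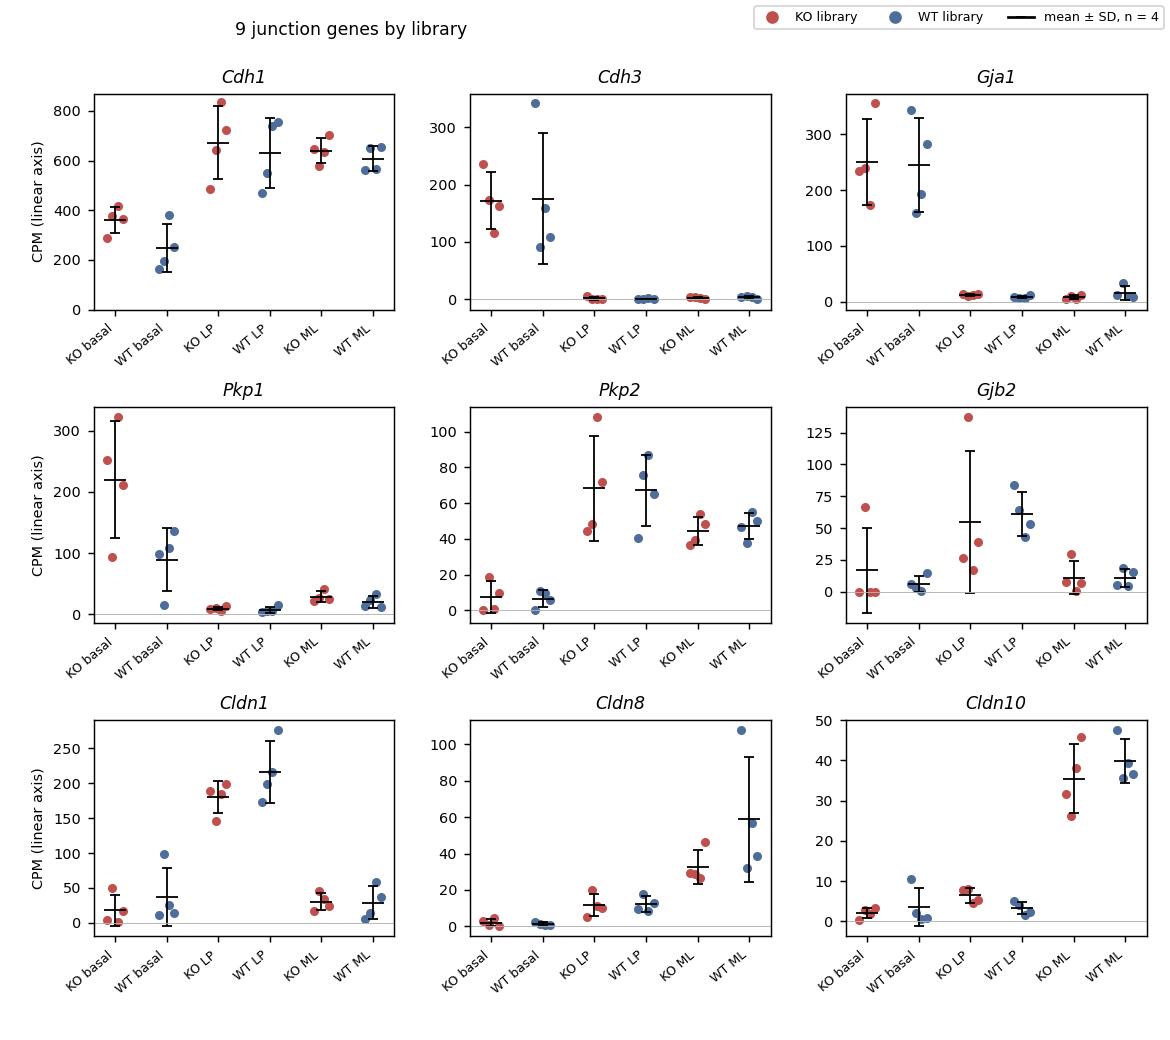
CPM of 9 junction genes in each library on linear axes, with a point per library and the mean ± SD of the 4 replicates of each group. Cdh3 and Gja1 are high in basal cells, Pkp1 in basal cells other than WT replicate 2, Cldn1 and Gjb2 in LP cells, and Cldn8 and Cldn10 in ML cells, while Cdh1 is present in all 6 groups.

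Per kilobase of the deposited gene length, which lets levels of different genes be compared, basal cells mixed 3 cadherins and luminal cells held nearly only Cdh1. Of the summed CPM per kilobase of Cdh1, Cdh2 and Cdh3, Cdh3 made up 30.4% ± 8.23 in KO basal and 38.0% ± 18.1 in WT basal cells (SD, n = 4 each). Cdh1 made up 65.3% ± 10.9 in KO basal and 57.9% ± 17.8 in WT basal cells, and at least 98.4% on average in each luminal group. The share of Cdh3 reached 65.0% in WT basal replicate 1 and lay between 21.5% and 41.4% in all other basal libraries.

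Desmosomal genes differed in both directions, with Pkp1 high in basal and Pkp2 in luminal cells. Of the 10 desmosomal genes 9 were tested, 5 were higher in WT basal than in WT LP cells (Dsp, Dsc3, Pkp1, Pkp4 and Perp) and 1 was lower (Pkp2). Against WT ML cells 4 were higher (Pkp1, Pkp3, Pkp4 and Perp) and 2 were lower (Dsc2 and Pkp2). Pkp1, plakophilin 1, which lies at chr1:135871395-135919207, stood at 251, 94.2, 323 and 212 CPM in KO basal and 98.2, 15.5, 108 and 136 CPM in WT basal libraries. In luminal libraries it stood at 5.68 to 41.6 CPM in KO and 3.69 to 32.8 CPM in WT. WT basal replicate 2, the library with the high LP markers, was the lowest basal library and overlapped the luminal ones. The log2 difference in WT cells was 3.57 ± 0.62 against LP (edgeR adjusted p = 0.00083) and 2.16 ± 0.58 against ML (edgeR adjusted p = 0.0121).

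Pkp2, plakophilin 2, ran the other way. It stood at 0.32, 19, 0.644 and 10.0 CPM in KO basal and 0, 10.9, 9.61 and 5.83 CPM in WT basal libraries, and at 36.9 to 108 CPM in KO luminal and 37.6 to 86.7 CPM in WT luminal libraries. All basal libraries lay below all luminal ones. The log2 difference in WT cells was -3.34 ± 0.70 against LP (edgeR adjusted p = 0.00361) and -2.82 ± 0.69 against ML (edgeR adjusted p = 0.00662). Pkp4, a plakophilin-related armadillo protein, averaged 178 ± 31.3 CPM in KO basal, 184 ± 60.2 CPM in WT basal, 80.1 ± 23.8 CPM in KO LP and 97.2 ± 17.3 CPM in WT LP cells. It was higher in basal than in LP cells in KO (log2 1.24 ± 0.27, edgeR adjusted p = 0.00453) and in WT (log2 0.95 ± 0.27, edgeR adjusted p = 0.0226), and the WT call held in 13 of 18 alternatives.

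Pkp3, plakophilin 3, was called higher in basal than in ML cells in KO (log2 1.24 ± 0.40, edgeR adjusted p = 0.0375) and in WT (log2 1.43 ± 0.35, edgeR adjusted p = 0.00706). The KO call held in 8 of 18 alternatives. Within the summed CPM per kilobase of the 4 plakophilins Pkp1 made up 32.4% ± 14.3 in KO basal and 16.0% ± 9.03 in WT basal cells, and at most 9.56% on average in each luminal group. Pkp2 made up 2.09% ± 2.81 in KO basal, 1.98% ± 1.5 in WT basal, 31.6% ± 9.62 in KO LP and 30.6% ± 8.15 in WT LP cells. The deposited length of Pkp3 is short (791 bases, against 2919 for its longest transcript), which raises its share: 33.8% in KO basal and 43.3% in WT basal cells became 13.8% and 22.2% with the longest transcripts.

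Dsp encodes desmoplakin, the link to keratin filaments, and lies at chr13:38151294-38198577. It stood at 1060.2, 503, 890.1 and 732 CPM in KO basal, 1034, 281, 679.6 and 616 CPM in WT basal, 168, 138, 188 and 222 CPM in KO LP and 118, 88.6, 78.3 and 185 CPM in WT LP libraries. In ML it stood at 317 to 587 CPM in KO and 347 to 453 CPM in WT libraries, above all LP libraries and within the basal range. It was higher in WT basal than in WT LP cells (log2 2.50 ± 0.35, edgeR adjusted p = 0.00012) and lower in WT LP than in WT ML cells (log2 -1.82 ± 0.34, edgeR adjusted p = 0.00223). Perp, a membrane protein of desmosomes that p63 is known to induce, showed the same order, averaging 240.2 ± 108 CPM in KO basal, 252 ± 91.2 CPM in WT basal, 40.9 ± 15.7 CPM in KO LP, 26.5 ± 6.94 CPM in WT LP, 75.6 ± 35.9 CPM in KO ML and 82.0 ± 21.0 CPM in WT ML cells. Its log2 difference was 3.27 ± 0.31 between WT basal and WT LP cells (edgeR adjusted p = 3.44e-06) and -1.61 ± 0.29 between WT LP and WT ML cells (edgeR adjusted p = 0.00171).

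The desmosomal cadherins were low apart from Dsg2, desmoglein 2, which ranged between 17.7 CPM in KO basal replicate 3 and 203 CPM in KO LP replicate 3. Dsc2, desmocollin 2, stood at 4.61, 24.3, 5.20 and 14.9 CPM in KO LP and 5.48, 5.20, 6.31 and 8.68 CPM in WT LP libraries, against 27.6, 29.9, 64.7 and 57.5 CPM in KO ML and 21.2, 44.5, 44.2 and 47.9 CPM in WT ML libraries. Within each genotype no LP library reached an ML one, and Dsc2 was lower in WT LP than in WT ML cells (log2 -2.6 ± 0.53, edgeR adjusted p = 0.00406). The same comparison in KO did not pass (log2 -1.86 ± 0.85, edgeR adjusted p = 0.289).

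Dsc3, desmocollin 3, and Dsg3, desmoglein 3, are cadherins of basal layers. Dsc3 stood at 20.8, 5.96, 0 and 15.6 CPM in KO basal and 3.33, 8.54, 14.0 and 3.40 CPM in WT basal libraries, at no more than 0.234 CPM in the 8 LP libraries, and at 1.38, 8.24, 31.8 and 0 CPM in KO ML and 0, 14.0, 21.3 and 2.78 CPM in WT ML libraries. In WT it was higher in basal than in LP cells (edgeR adjusted p = 0.0085) and lower in LP than in ML cells (edgeR adjusted p = 0.00796), and both calls were lost with limma's voom. The LP level lies under 3 counts per library, so no fold is given. Dsg3 was at 0 in all 8 LP libraries and at most 9.22 CPM elsewhere. In ML replicates 2 and 3 of both genotypes, where Dsc3 was highest, the basal genes Krt5 (28.8 and 39.7 CPM in KO, 31.2 and 42.6 CPM in WT) and Trp63 (19.6 and 20.3 CPM in KO, 22.1 and 26.1 CPM in WT) were also higher than in ML replicates 1 and 4 (at most 11.2 and 4.38 CPM). The 10 basal markers summed to 198 and 146 CPM in these KO ML libraries and 190.3 and 223 CPM in these WT ML libraries, against at most 97.2 CPM in the other ML libraries and at least 7887 CPM in basal ones. Their part in the Dsc3 level of ML cells was not tested.

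Several claudins were lower in basal than in luminal cells, and some differed between LP and ML cells. Of the 9 claudins 4 were lower in WT basal than in WT LP cells (Cldn1, Cldn4, Cldn7 and Cldn8) and the other 5 were not called. Against WT ML cells 4 were lower (Cldn4, Cldn7, Cldn8 and Cldn10) and 1 was called higher (Cldn2). Cldn7, a claudin also found along the sides of epithelial cells, lies at chr11:69964779-69967885. It stood at 0.96, 20.3, 0.966 and 0.465 CPM in KO basal and 0.145, 11.1, 4.95 and 4.37 CPM in WT basal libraries, against 28.4 to 68.8 CPM in KO luminal and 41.1 to 78.5 CPM in WT luminal libraries. No basal library reached a luminal one, and the highest were KO basal replicate 2 and WT basal replicate 2, which also held the most LP marker RNA. The log2 difference in WT cells was -3.49 ± 0.63 against LP (edgeR adjusted p = 0.00115) and -3.37 ± 0.63 against ML (edgeR adjusted p = 0.000943).

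LP cells were marked by Cldn1 and Cldn2. Cldn1, a sealing claudin that lies at chr16:26356642-26371841, stood at 189, 146, 185 and 199 CPM in KO LP and 173, 199, 216 and 276 CPM in WT LP libraries. It stood at 17.4, 45, 34.0 and 24.6 CPM in KO ML and 5.59, 13.8, 58.2 and 37.4 CPM in WT ML libraries, and no ML library reached an LP one. The log2 difference between LP and ML cells was 2.58 ± 0.71 in KO (edgeR adjusted p = 0.0411) and 2.92 ± 0.70 in WT (edgeR adjusted p = 0.0114), and the KO call held in 7 of 17 alternatives. The WT call was lost without the expression filter (edgeR adjusted p = 0.104). In basal libraries Cldn1 stood at 3.84, 50.2, 0.966 and 16.3 CPM in KO and 10.9, 97.9, 25.1 and 13.9 CPM in WT, highest in replicate 2 of each. It was lower in basal than in LP cells in KO (log2 -3.23 ± 0.73, edgeR adjusted p = 0.00599) and in WT (log2 -2.52 ± 0.69, edgeR adjusted p = 0.0198).

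Cldn2, a claudin that forms cation pores and lies at chrX:139800828-139811386, stood at 53.6, 11.9, 8.04 and 12.9 CPM in KO LP and 13.6, 26.7, 7.01 and 16.3 CPM in WT LP libraries. It reached at most 1.38 CPM in KO ML libraries and was at 0 in all 4 WT ML libraries. WT LP cells, with a mean of 15.9 CPM, were at least 32.7-fold higher than WT ML cells when WT ML libraries are set to 3 counts each (0.486 CPM on average; edgeR adjusted p = 0.00432). In KO the log2 difference between LP and ML cells was 4.90 ± 1.16 (edgeR adjusted p = 0.017). The higher call in WT basal than in WT ML cells (edgeR adjusted p = 0.0203) rests on 6.95 CPM in WT basal replicate 2, as the other WT basal libraries held at most 0.971 CPM, and it was lost without that library.

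ML cells were marked by Cldn8 and Cldn10. Cldn8, which in the kidney is known as a claudin of collecting ducts, stood at 29.1, 28.8, 26.3 and 46.2 CPM in KO ML and 108, 32.2, 57.0 and 38.4 CPM in WT ML libraries. In LP it stood at 5.38, 19.8, 11.4 and 9.97 CPM in KO and 9.81, 17.9, 8.41 and 12.8 CPM in WT libraries, and in basal libraries at 0.233 to 4.51 CPM in KO and 0.583 to 2.61 CPM in WT. The order ML over LP over basal held without overlap in both genotypes. In WT the log2 difference was -5.38 ± 0.57 between basal and ML cells (edgeR adjusted p = 6.78e-06), -3.12 ± 0.54 between basal and LP cells (edgeR adjusted p = 0.000796) and -2.26 ± 0.48 between LP and ML cells (edgeR adjusted p = 0.00529). In KO the step between LP and ML cells did not pass (log2 -1.46 ± 0.66, edgeR adjusted p = 0.28).

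Cldn10, a claudin with ion-selective pore isoforms, stood at 31.7, 26.1, 38.2 and 45.9 CPM in KO ML and 47.6, 35.5, 39.3 and 36.5 CPM in WT ML libraries. It stood at 0.32 to 8.10 CPM in the other KO and 0.583 to 10.6 CPM in the other WT libraries, so no basal or LP library reached an ML one. The log2 difference between LP and ML cells was -2.44 ± 0.60 in KO (edgeR adjusted p = 0.0223) and -3.56 ± 0.72 in WT (edgeR adjusted p = 0.00386). Between basal and ML cells it was -3.98 ± 0.66 in KO (edgeR adjusted p = 0.000333) and -3.41 ± 0.71 in WT (edgeR adjusted p = 0.00234).

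Cldn4, known as a barrier claudin, and Cldn3 were shared by both luminal populations. Cldn4 averaged 91.9 ± 44.7 CPM in KO LP, 56.0 ± 8.30 CPM in WT LP, 106 ± 63.3 CPM in KO ML and 83.8 ± 25.3 CPM in WT ML cells. In basal libraries it stood at 5.92, 62.0, 3.22 and 1.40 CPM in KO and 2.61, 33.8, 15.4 and 17.5 CPM in WT, highest in replicate 2 of each. It was lower in WT basal than in WT LP cells (log2 -1.67 ± 0.49, edgeR adjusted p = 0.0305), a call that held in 12 of 18 alternatives, and the same comparison in KO did not pass (log2 -2.25 ± 0.84, edgeR adjusted p = 0.0841). Cldn3 was lower in KO basal than in KO LP cells (log2 -2.40 ± 0.59, edgeR adjusted p = 0.00986), and in WT, where replicate 2 of the basal cells held 54.4 CPM and the others at most 9.06 CPM, the difference did not pass (log2 -1.82 ± 0.62, edgeR adjusted p = 0.0587). Without that library it did (log2 -3.23 ± 0.44, edgeR adjusted p = 6.44e-05). Cldn12, a claudin without the usual binding end for scaffold proteins, did not pass in any WT comparison of populations and ranged from 8.46 to 53.4 CPM over the 24 libraries. It was called higher in KO basal than in KO ML cells, and that call held in 13 of 18 alternatives. Cldn23 stood at or under 10.8 CPM in every library.

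The 9 claudins summed to 45 ± 46.2 CPM per kilobase in KO basal, 55.4 ± 42.3 in WT basal, 253 ± 24.8 in KO LP, 268 ± 45.6 in WT LP, 210.5 ± 21.2 in KO ML and 225 ± 26.3 in WT ML cells (SD, n = 4 each). Cldn1 made up 22.1% ± 3.98 of that sum in KO LP and 25.4% ± 6.51 in WT LP cells, against 4.34% ± 1.38 in KO ML and 4.21% ± 3.68 in WT ML cells. Cldn10 made up 1.19% ± 0.286 in KO LP and 0.57% ± 0.247 in WT LP cells, against 7.98% ± 1.96 in KO ML and 8.37% ± 1.23 in WT ML cells. Cldn12 made up 26.6% ± 14.7 in KO basal and 20.1% ± 18.6 in WT basal cells and at most 2.35% on average in each luminal group. Cldn7 made up 26.2% ± 4.56 in KO LP, 32.5% ± 3.69 in WT LP, 33.5% ± 10.1 in KO ML and 36.5% ± 2.53 in WT ML cells, the largest share in each, on a deposited length of 664 bases. With the longest transcripts (1335 bases for Cldn7) its share was 16.6% in KO LP, 21.4% in WT LP, 20.7% in KO ML and 22.5% in WT ML cells, and Cldn4 or Cldn3 was larger in each.

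**Figure D3:**
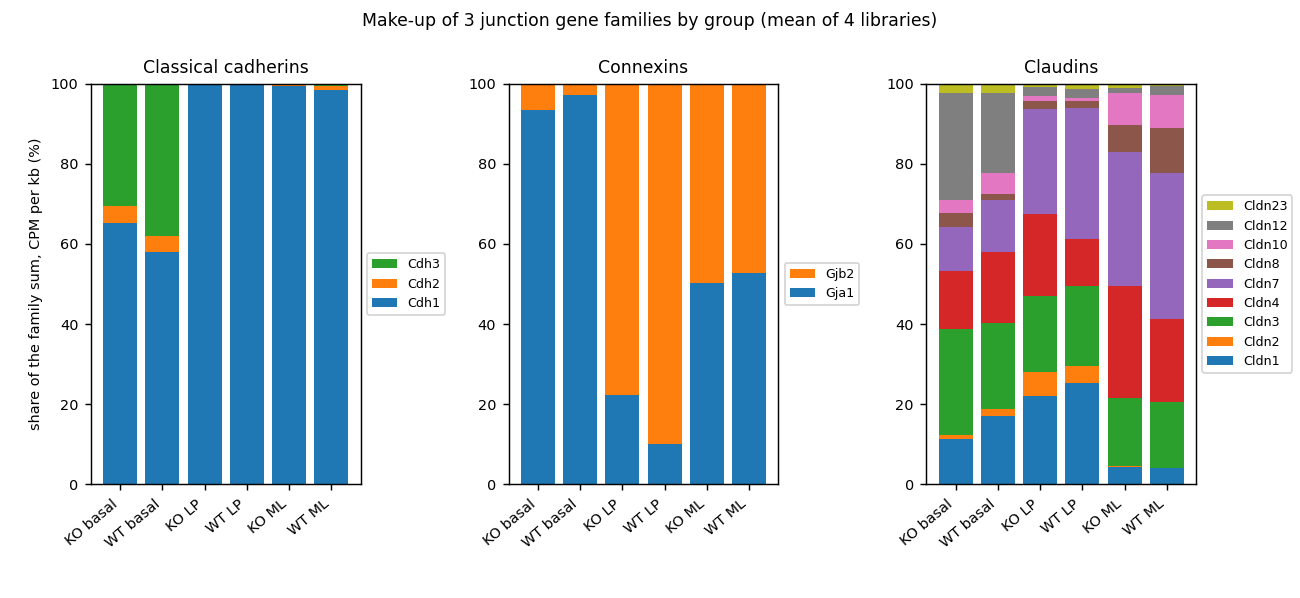
Shares of the summed CPM per kilobase of deposited length held by each cadherin, connexin and claudin in the 6 groups, as means of 4 libraries. Cdh3 takes 30.4% of the cadherin sum in KO basal and 38.0% in WT basal cells, Gja1 93.4% of the connexin sum in KO basal and 97.2% in WT basal cells, and Cldn1 22.1% of the claudin sum in KO LP and 25.4% in WT LP cells.

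Most of the other tight junction genes were lower in basal cells. Of these 8 genes 6 were lower in WT basal cells and the other 2 were not called, against LP (Ocln, Tjp3, Marveld2, Marveld3, Epcam and Cgn) and against ML (Ocln, F11r, Marveld2, Marveld3, Epcam and Cgn). Ocln, occludin, stood at 3.52, 6.33, 0.322 and 0.233 CPM in KO basal and 9.13, 5.36, 4.08 and 11.49 CPM in WT basal libraries, against 30.5 to 83.6 CPM in KO luminal and 37.4 to 81.8 CPM in WT luminal libraries. The log2 difference between basal and LP cells was -4.66 ± 0.68 in KO (edgeR adjusted p = 0.000172) and -2.92 ± 0.38 in WT (edgeR adjusted p = 6.52e-05). Its neighbour Marveld2, which encodes tricellulin of the contacts where several cells meet, had -3.02 ± 0.72 in KO (edgeR adjusted p = 0.00856) and -3.05 ± 0.60 in WT (edgeR adjusted p = 0.00227).

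Epcam, which lies at chr17:87635979-87651129, stood at 196, 161, 244 and 164 CPM in KO basal and 194, 313, 274 and 245 CPM in WT basal libraries, against 605 to 873 CPM in KO luminal and 632 to 965 CPM in WT luminal libraries. It was never near 0 in basal cells, and the basal and luminal libraries did not overlap. It was 3.79-fold lower in basal than in LP cells in KO (log2 -1.92 ± 0.22, edgeR adjusted p = 2.07e-05) and 3.1-fold lower in WT (log2 -1.63 ± 0.21, edgeR adjusted p = 6.01e-05). Cgn, cingulin of the junction's inner face, averaged 7.30 ± 10.2 CPM in KO basal, 7.64 ± 10.1 CPM in WT basal, 58.2 ± 23.8 CPM in KO LP and 46.8 ± 18.9 CPM in WT LP cells, and its WT call against LP (edgeR adjusted p = 0.0211) held in 13 of 18 alternatives. The F11r call against WT ML cells (edgeR adjusted p = 0.0438; JAM-A, an adhesion molecule of the tight junction) held in 3 of 18. Tjp1, the scaffold ZO-1, did not pass in any comparison and ranged between 256 and 407 CPM, with a 95% interval of -0.29 to 0.45 for the log2 difference between WT basal and WT LP cells.

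The connexins changed over between basal and LP cells. Gja1, connexin 43, stood at 234, 240.1, 173 and 356 CPM in KO basal and 344, 158, 193 and 282 CPM in WT basal libraries, against 4.89 to 13.6 CPM in KO luminal and 6.45 to 34.1 CPM in WT luminal libraries. The basal libraries lay far above all luminal ones. Gja1 was 29.4-fold higher in WT basal than in WT LP cells (log2 4.88 ± 0.47, edgeR adjusted p = 4.08e-06) and 16.1-fold higher than in WT ML cells (log2 4.01 ± 0.45, edgeR adjusted p = 1.07e-05), and 21.7-fold higher in KO basal than in KO LP cells (edgeR adjusted p = 8.39e-07).

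Gjb2, connexin 26, stood at 26.1, 137, 16.8 and 39.4 CPM in KO LP and 83.4, 63.8, 43.0 and 53.2 CPM in WT LP libraries. In ML it stood at 7.23, 29.9, 0.564 and 6.45 CPM in KO and 5.07, 18.6, 4.74 and 15.5 CPM in WT libraries, and in basal cells at 0, 66.8, 0 and 0 CPM in KO and 6.23, 2.78, 0.874 and 14.6 CPM in WT. The WT LP libraries lay above all other WT libraries, while in KO replicate 2 was the highest of its group in all 3 populations. In WT the log2 difference was -3.25 ± 0.66 between basal and LP cells (edgeR adjusted p = 0.00281) and 2.48 ± 0.63 between LP and ML cells (edgeR adjusted p = 0.0168). The first call was lost when all 24 libraries were fitted together, and the second held in 14 of 18 alternatives, being lost in that fit and without WT LP replicate 1, WT ML replicate 1 or WT ML replicate 3. In KO neither difference passed, with log2 -1.60 ± 1.57 between basal and LP cells (edgeR adjusted p = 0.567) and 2.30 ± 1.61 between LP and ML cells (edgeR adjusted p = 0.609). Of the summed CPM per kilobase of both connexins Gja1 made up 93.4% ± 13.2 in KO basal, 97.2% ± 2.41 in WT basal, 22.3% ± 12.5 in KO LP, 10.0% ± 3.21 in WT LP, 50.3% ± 28.6 in KO ML and 52.7% ± 16.4 in WT ML cells.

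The KO populations were set apart by much the same junction genes as the WT ones, in libraries that the WT comparisons did not use. Between KO basal and KO LP cells 8 members were higher (8.12% of 12711 genes tested) and 13 were lower (6.69% of genes). Between KO basal and KO ML cells 9 were higher (11.9% of genes) and 10 were lower (7.51% of genes), and between KO LP and KO ML cells 2 were higher (4.08% of genes) and 4 were lower (1.59% of genes). Of the 19 calls between KO basal and KO ML cells 11 were made without KO ML replicate 1 and 12 without KO ML replicate 2. Of the 6 between KO LP and KO ML cells 1 was made without KO LP replicate 1, 2 without KO LP replicate 3, 3 without KO LP replicate 4, 1 without KO ML replicate 3 and 3 without KO ML replicate 4. The 8 members higher in basal than in LP cells were the same in both genotypes: Cdh2, Cdh3, Dsp, Dsc3, Pkp1, Pkp4, Perp and Gja1. Of those lower in basal than in LP cells 10 were shared (76.9% of the KO calls and 71.4% of the WT calls): Cdh1, Ctnnd1, Pkp2, Cldn1, Cldn7, Cldn8, Ocln, Marveld2, Epcam and Cgn.

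Against ML cells 6 higher calls were shared (66.7% of the KO and 85.7% of the WT calls): Cdh3, Pkp1, Pkp3, Pkp4, Perp and Gja1. The 9 lower calls that were shared (90% of the KO and 69.2% of the WT calls) were Cdh1, Pkp2, Cldn7, Cldn8, Cldn10, Ocln, Marveld2, Epcam and Cgn. Between LP and ML cells Cldn1 and Cldn2 were higher in both genotypes and Dsp, Dsc3 and Cldn10 lower in both. A call in 1 genotype only, such as Gjb2 or Cldn4 in WT or Dsg2 in KO, does not show that the genotypes differ, and the test of that difference is given with the KO comparisons.

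**Figure D4:**
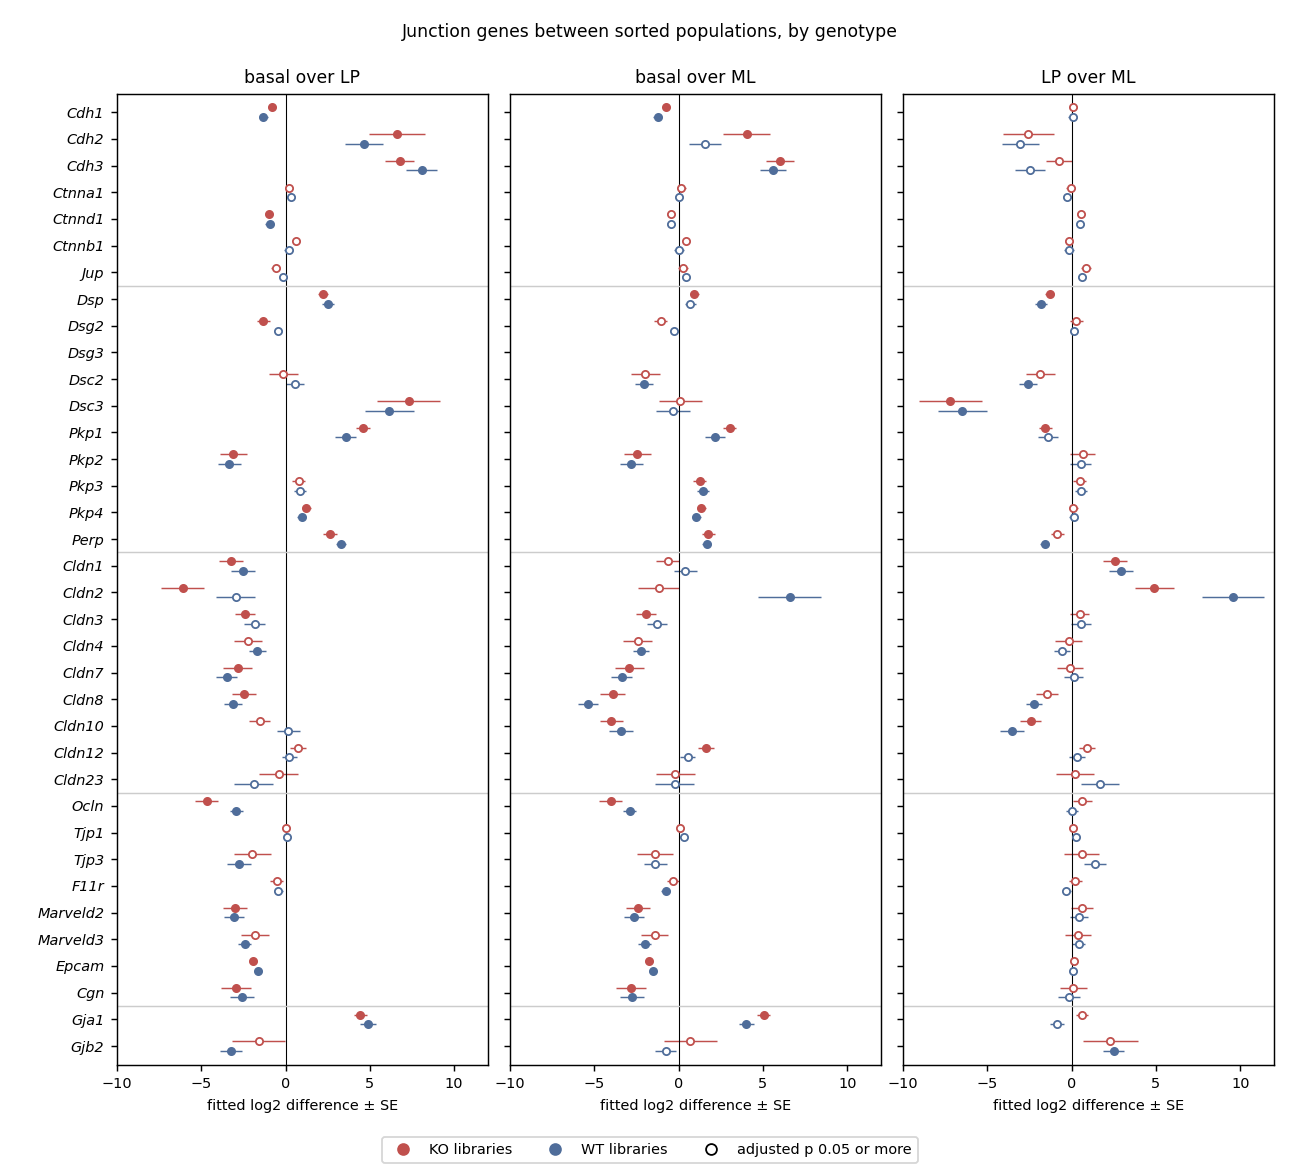
Log2 difference ± SE of each member between populations, with KO drawn above WT for each gene, and filled points for an edgeR adjusted p under 0.05. Cdh3 and Gja1 lie far on the basal side in both genotypes, Ocln and Marveld2 on the luminal side, and Cldn1 and Cldn10 on opposite sides between LP and ML cells; the size for Cldn2 against WT ML, where it was at 0, depends on the prior count.

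The counts were repeated without the libraries that stood apart. Without WT basal replicate 2, 8 members were higher and 16 were lower in WT basal than in WT LP cells, and 7 and 14 against WT ML cells. Without KO basal replicate 2, 9 were higher and 14 were lower in KO basal than in KO LP cells, and 7 and 15 against KO ML cells. Without KO basal replicate 3 the counts were 8 and 14 against LP, and 8 and 12 against ML. All members called in the 6 comparisons of populations kept their sign within replicates 1 and 2 and within replicates 3 and 4. They were called in these same libraries, so the kept signs are no separate support.

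Other genes of the same junctions, from lists written for this purpose, were set beside the members. Of 12 further adherens junction genes tested 8 were higher and 2 were lower in WT basal than in WT LP cells. They included Cdh13, T-cadherin, at 52.3 ± 12.2 CPM in WT basal and 1.91 ± 1.64 CPM in WT LP cells (log2 4.76 ± 0.60, edgeR adjusted p = 4.42e-05), and Ctnnd2, delta-catenin, at 133 ± 56.8 CPM in WT basal and 12.6 ± 3.06 CPM in WT LP cells (log2 3.42 ± 0.44, edgeR adjusted p = 5.45e-05). Of 20 further tight junction genes 5 were higher and 5 were lower, among them Cgnl1, paracingulin, at 81.9 ± 10.5 CPM in WT basal and 354 ± 74.9 CPM in WT LP cells (log2 -2.08 ± 0.21, edgeR adjusted p = 6.02e-06). Of 7 further desmosome and keratin genes Krt14 and Krt5 were higher and Krt18 and Krt8 were lower.

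Of 21 tested regulators of junction genes 6 were higher in WT basal than in WT LP cells (Klf4, Id3, Id4, Trp63, Snai2 and Tcf4) and 3 were lower (Ehf, Grhl1 and Esrp1). Trp63, the basal factor p63, averaged 417 ± 143 CPM in WT basal and 2.74 ± 2.66 CPM in WT LP cells (log2 7.31 ± 0.87, edgeR adjusted p = 2.86e-05). Ehf, an epithelial ETS factor, averaged 44.4 ± 22.7 CPM in WT basal and 372 ± 84.8 CPM in WT LP cells (log2 -3.03 ± 0.38, edgeR adjusted p = 4.5e-05).

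Loss of ID4 was followed by no called change of a junction gene in any population. In basal cells 0 of 31 members tested passed between KO and WT, as did 0% of 11307 genes, with 383 genes at an unadjusted p under 0.05. Id4 itself, at 0.931 to 10.95 CPM in KO basal and 13.3 to 86.2 CPM in WT basal libraries, was thus not called there. The absence of a call therefore does not show that a gene was unchanged. In LP 0 of 32 members passed, as did 0% of 11700 genes, with 439 at an unadjusted p under 0.05. In ML 0 of 34 passed, where 0.00851% of 11747 genes did, with 455 at an unadjusted p under 0.05. DESeq2, limma's voom and the fit with a replicate block called 0 members in each population, and over all genes DESeq2 called 19 in basal, 4 in LP and 8 in ML cells and voom 1, 0 and 1. At an unadjusted edgeR p under 0.05 stood 1 member in basal cells, 1 in LP and 2 in ML.

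For no member did the 4 KO libraries lie apart from the 4 WT libraries of the same population. Over all genes the KO libraries lay wholly above the WT ones for 1.04% in basal cells, 1.57% in LP and 1.23% in ML, and wholly below for 1.57%, 1.03% and 1.52%. The median size of the log2 difference over the members tested was 0.22 in basal cells, 0.28 in LP and 0.16 in ML, and over all genes 0.45, 0.26 and 0.23. Not tested for low counts were Dsg3, Cldn2, Cldn8, Cldn23 and Tjp3 in basal cells, Cdh2, Cdh3, Dsg3 and Dsc3 in LP, and Dsg3 and Cldn2 in ML.

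In basal cells Pkp1 came nearest to a difference. Its KO libraries, at 251, 94.2, 323 and 212 CPM, overlapped the WT ones, at 98.2, 15.5, 108 and 136 CPM, and the log2 difference was 1.34 ± 0.51 (95% interval 0.26 to 2.43, unadjusted p = 0.0185, edgeR adjusted p = 0.998). The lowest value was that of WT basal replicate 2, and without that library the KO and WT ranges of Pkp1 still overlapped. Cdh1 averaged 362 ± 53.1 CPM in KO basal and 247 ± 96.1 CPM in WT basal cells (log2 0.57 ± 0.31, 95% interval -0.08 to 1.23, edgeR adjusted p = 0.998). Ctnnb1 averaged 779 ± 198 CPM in KO and 658 ± 218 CPM in WT (log2 0.28 ± 0.30, edgeR adjusted p = 0.998), and its sign turned without WT basal replicate 2 and KO basal replicate 3 together.

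On the lower side in basal cells stood Ocln, Epcam and Dsg2. Ocln averaged 2.6 ± 2.92 CPM in KO basal and 7.52 ± 3.41 CPM in WT basal cells (log2 -1.49 ± 1.16, 95% interval -3.96 to 0.99, edgeR adjusted p = 0.998). Its log2 difference was -2.43 without KO basal replicate 2 and -1.14 without KO basal replicate 3. Epcam averaged 191 ± 38.7 CPM in KO and 257 ± 49.97 CPM in WT (log2 -0.41 ± 0.28, 95% interval -1.01 to 0.19). Dsg2 stood at 101, 93.4, 17.7 and 51.2 CPM in KO and 124, 108, 133 and 101 CPM in WT basal libraries, lowest in KO replicate 3, the library with the most endothelial marker RNA, and had log2 -0.82 ± 0.43 (95% interval -1.75 to 0.10); the part of other cells in that value was not tested. Without that library the log2 difference of Dsg2 was -0.51. Cdh3 had log2 -0.0028 ± 0.38 (95% interval -0.81 to 0.80) and Gja1 0.06 ± 0.30 (95% interval -0.58 to 0.71), so that neither leading basal junction gene differed beyond its error, and differences within those intervals are not excluded.

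In LP cells Cldn4 had the smallest unadjusted p. It stood at 48.6, 70.5, 152 and 96.6 CPM in KO LP and 47.4, 53.6, 55.8 and 67.2 CPM in WT LP libraries, with KO replicates 2, 3 and 4 above and KO replicate 1 within the WT range (log2 0.71 ± 0.32, 95% interval 0.02 to 1.40, unadjusted p = 0.0445, edgeR adjusted p = 0.999). Dsp averaged 179 ± 35.3 CPM in KO and 117 ± 48.1 CPM in WT LP cells (log2 0.59 ± 0.28, 95% interval -0.01 to 1.20), and Perp 40.9 ± 15.7 CPM in KO and 26.5 ± 6.94 CPM in WT (log2 0.62 ± 0.33, 95% interval -0.10 to 1.33). Within the 4 pairs of same-numbered libraries each of Cldn4, Dsp and Perp was higher in the KO LP library in 4 of 4. Of the 36 members 8 were higher in all 4 pairs and 2 were lower, and the share over all genes was not computed. Cldn4, Dsp and Perp were picked by p in these same libraries, so the signs of their pairs are no separate support. With the replicate number as a block their log2 differences were 0.59 for Cldn4 (edgeR adjusted p = 0.647), 0.65 for Dsp (edgeR adjusted p = 0.477) and 0.58 for Perp (edgeR adjusted p = 0.654), none of which passed. On the lower side Cldn7 averaged 44.2 ± 9.23 CPM in KO and 58.6 ± 15.7 CPM in WT LP cells (log2 -0.41 ± 0.25, 95% interval -0.96 to 0.14). Cldn1 had log2 -0.28 ± 0.21 (95% interval -0.74 to 0.18) and Pkp4 -0.30 ± 0.26 (95% interval -0.85 to 0.25). The list of 12 ML markers summed to 954 to 1987 CPM in KO LP libraries, against 554 to 901 CPM in WT LP libraries, and their part in these values was not tested.

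In ML cells the smallest unadjusted p belonged to Cldn8, with 29.1, 28.8, 26.3 and 46.2 CPM in KO ML and 108, 32.2, 57.0 and 38.4 CPM in WT ML libraries (log2 -0.84 ± 0.35, 95% interval -1.61 to -0.08, unadjusted p = 0.0332, edgeR adjusted p = 0.998). KO replicate 4 lay within the WT range and the other 3 KO libraries below it. Cldn12 stood at 10.3, 13.1, 8.46 and 11.3 CPM in KO ML and 20.5, 26.4, 11.4 and 13.9 CPM in WT ML libraries (log2 -0.72 ± 0.32, 95% interval -1.40 to -0.03, unadjusted p = 0.0413, edgeR adjusted p = 0.998), and again the ranges overlapped. Within the 4 pairs of same-numbered libraries Cldn12 was lower in the KO ML library in 4 of 4 and Cldn8 in 3 of 4. Of the 36 members 2 were higher in all 4 pairs and 2 were lower, and the share over all genes was not computed. Cldn12 and Cldn8 were picked by p in these same libraries, so the signs of their pairs are no separate support. With the replicate number as a block Cldn12 had log2 -0.67 (edgeR adjusted p = 0.671) and Cldn8 -0.71 (edgeR adjusted p = 0.705), and neither passed. Gja1 averaged 8.00 ± 3.53 CPM in KO and 15.7 ± 12.4 CPM in WT ML cells (log2 -0.94 ± 0.49, 95% interval -2.0 to 0.13), where WT replicate 2 held 34.1 CPM. On the higher side stood Cldn23 (log2 0.93 ± 0.54, 95% interval -0.25 to 2.11), Tjp1 (0.27 ± 0.18, 95% interval -0.11 to 0.65) and Pkp1 (0.50 ± 0.35, 95% interval -0.25 to 1.25).

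**Figure D5:**
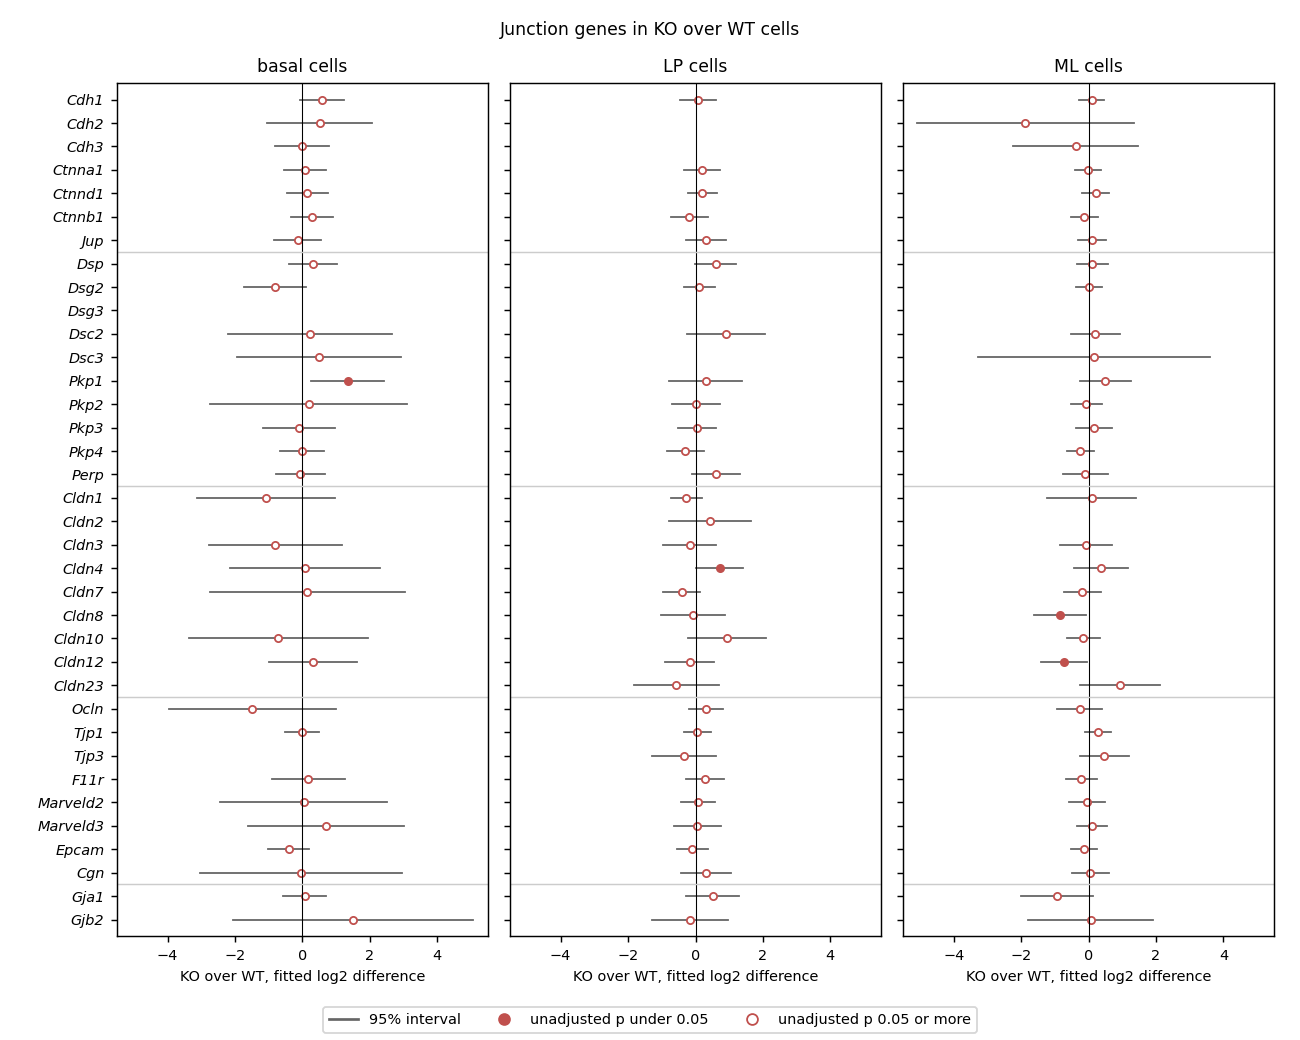
Log2 difference of each tested member between KO and WT cells with its 95% interval, in basal, LP and ML cells, with filled points for an unadjusted p under 0.05. The filled points are Pkp1 in basal cells (1.34), Cldn4 in LP (0.71), and Cldn8 (-0.84) and Cldn12 (-0.72) in ML, and no member passes the adjusted threshold.

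The KO effect on junction genes was not found to differ between populations. Tested as a difference of differences in all 24 libraries, 0 of 36 members passed for basal against LP (0% of 14082 genes), for basal against ML (0% of genes) and for LP against ML (0% of genes). Over all genes 980, 970 and 186 stood at an unadjusted p under 0.05, and DESeq2 called 40, 29 and 1. Among the members 2, 1 and 2 stood at an unadjusted p under 0.05. For basal against LP these were Ocln (log2 -1.77 ± 0.73, edgeR adjusted p = 0.614) and Dsg2 (log2 -0.92 ± 0.44, edgeR adjusted p = 0.704). For LP against ML Gja1 had log2 1.45 ± 0.55 (edgeR adjusted p = 1). Cldn2 had an unadjusted p under 0.05 for basal against ML and for LP against ML, and since it was at 0 in all WT ML libraries no size is given.

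Among the further junction genes and regulators 0 passed between KO and WT in any population. Ctnnd2 averaged 72.6 ± 36.7 CPM in KO basal and 133 ± 56.8 CPM in WT basal cells (log2 -0.88 ± 0.40, edgeR adjusted p = 0.998), and 5.60 ± 3.00 CPM in KO and 12.6 ± 3.06 CPM in WT LP cells (log2 -1.18 ± 0.46, edgeR adjusted p = 0.999). Ppl, the desmosomal plakin periplakin, averaged 32.2 ± 11.6 CPM in KO basal and 74.0 ± 36.8 CPM in WT basal cells (log2 -1.18 ± 0.46, edgeR adjusted p = 0.998).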

How the data were processed

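RNA from 24 libraries of sorted mouse mammary epithelium, 4 per group, was compared. The deposited table gives, per the file headers, an expected count for each gene and library, and a gene length. Cutadapt, STAR, RSEM and the mm10 build appear in the submitters' processing notes, with versions not given in the sources used here. Expected counts were rounded to whole numbers. Amplified RNA carries no molecular identifiers, so limits from counts cover counting error only.

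R 4.3.3 ran edgeR 4.0.16 (TMM scaling, default expression filter, robust quasi-likelihood F-test, two-sided, Benjamini-Hochberg adjustment at 0.05 over all genes tested). Each population had its own fit of 8 libraries for KO against WT. Populations were compared within the 12 KO or the 12 WT libraries, and KO effects between populations in all 24. Printed CPM use a scaling of all 24 libraries. Alternatives were DESeq2 1.42.0, limma 3.58.1 voom with sample weights, RLE scaling, no filter, all 24 libraries, a replicate block, values within pairs of replicates, and leaving out each replicate. The scripts were tested on simulated data. Within a group the lowest chi-square per degree of freedom between libraries was 19, so no libraries were merged as duplicates.

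Replicate numbers came from the sample titles, since the replicate tags of KO ML samples repeat a number. Same-numbered KO and WT libraries deviated together in LP (correlations 0.119 to 0.354) and ML (0.121 to 0.333). They were treated as pairs there by the rule that every pair exceeds 0.1. The pairing entered only the counts of pairs and the fits with a replicate block. The main KO against WT fits, with their SE, intervals and p-values, were unpaired. The members, the lists and the rules were chosen with earlier results of these data known. Named were the 3 largest called changes in each direction between WT populations among members reaching 5 CPM, the 3 smallest p in each direction between KO and WT, and members at 0 in a whole group; other members are named for their role. Of 196 symbols in the other lists 185 matched. Gene positions are from GENCODE M21 on mm10. A few genes of the other lists are not reported here.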

Additional observations from a re-analysis of the deposited data

Results flagged for a closer look

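In 25 of the 198 sets of 4 replicate values of a member, 1 library stood far from the other 3. The cut-off flags about 1 in 20 sets of independent, normally distributed values. The CPM here are skewed, often at 0 and from shared libraries, so that rate does not apply and no excess over chance is read. KO basal replicate 2, which held more LP marker RNA than the other KO basal libraries, was high for Gjb2 (66.8 CPM, and 0 in the other KO basal libraries), Cldn4 (62.0 CPM, others 1.40 to 5.92), Cldn7 (20.3 CPM, others 0.465 to 0.966), Tjp3 (18.8 CPM, others 0 to 0.48) and Cldn23 (10.8 CPM, others 0 to 1.6). WT basal replicate 2, with the most LP marker RNA of all basal libraries, was high for Cldn1 (97.9 CPM, others 10.9 to 25.1), Pkp3 (79.4 CPM, others 26.8 to 35.1), Cldn3 (54.4 CPM, others 4.93 to 9.06) and Cldn2 (6.95 CPM, others 0 to 0.971). The part of LP RNA in these values was not tested. KO basal replicate 3 was high for Marveld3 (47.0 CPM, others 1.68 to 3.84).

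Other basal libraries that stood apart were WT basal replicate 1 for Perp (387.5 CPM, others 197 to 224.5) and Cldn10 (10.6 CPM, others 0.583 to 2.18), WT basal replicate 3 for Cldn23 (6.41 CPM, others 0 to 0.648) and WT basal replicate 4 for Tjp3 (11.01 CPM, others 0.725 to 1.79). KO LP replicate 1 was high for Cldn2 (53.6 CPM, others 8.04 to 12.9).

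In ML cells KO replicate 3 was high for Perp (129 CPM, others 52.5 to 63.0) and Dsg3 (9.22 CPM, others 0 to 0.675), and WT replicate 3 for Dsg3 (6.12 CPM, others 0 to 0.146), in libraries that also held more basal marker RNA than replicates 1 and 4. KO ML replicate 2 was high for Cdh2 (5.67 CPM, and 0 in the others) and low for Ctnnd1 (345.5 CPM, others 396 to 405). KO ML replicate 4 was high for Cldn8 (46.2 CPM, others 26.3 to 29.1). WT ML replicate 2 was high for Pkp4 (114.5 CPM, others 79.7 to 85.3), Gja1 (34.1 CPM, others 7.89 to 11.2) and Tjp3 (15.4 CPM, others 8.09 to 9.10), and WT ML replicate 1 was low for Dsc2 (21.2 CPM, others 44.2 to 47.9).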

How the results depend on the processing

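The counts of called members moved by at most 1.5 times in 227 of 235 alternative counts. Counts at 0 in both fits, such as those of KO against WT, are among the 227 and say nothing about how stable the calls between populations are. In KO cells limma's voom called 10 members between LP and ML cells, against 6 in the edgeR fit. Over all genes voom called 2151 there, against 721 in the edgeR fit, so the rise is not particular to junction genes. Leaving out 1 replicate gave 1 to 6 members between KO LP and KO ML cells, and 11 to 22 between KO basal and KO ML cells, against 19. The cause was not tested. Leaving out 1 replicate gave 18 to 23 calls between KO basal and KO LP cells, 17 to 24 between WT basal and WT LP, 19 to 21 between WT basal and WT ML, 8 to 10 between WT LP and WT ML, and 0 in each KO against WT comparison. DESeq2 called 1 member higher and 4 lower between KO LP and KO ML cells, against 2 and 4, and over all genes it called 1208, against 721. With the replicate block 0 members were called between KO and WT, 25 in KO and 24 in WT for basal against LP cells, 20 in each for basal against ML, and 5 in KO and 9 in WT for LP against ML. Over all genes the block called 2002 in KO and 2239 in WT for basal against LP. It called 2653 and 3294 for basal against ML, and 852 and 1748 for LP against ML. Same-numbered libraries were not paired in basal cells (correlations 0.057 to 0.14 between KO and WT) or between populations by the rule used, although each of the 8 basal libraries correlated best with its own number. Ctnnb1 between KO and WT basal cells had a log2 difference of -0.12 without WT basal replicate 2 and KO basal replicate 3; the cause was not tested. All members called between populations kept their sign in each alternative, and no scaling moved the median of all genes by 0.1. The alternatives use the libraries in which the members were called, so the kept signs are no separate support. At these depths 3 counts correspond to 0.382 to 0.966 CPM, so a member under about 1 CPM rests on few counts. That limits Dsg3, Dsc3 in LP, and Cldn2 and Cldn23 in basal cells.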

Other observations

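Some members split by replicate number within the luminal populations, in both directions. Over both genotypes 3 of 36 members were higher in replicates 1 and 2 than in replicates 3 and 4 of LP cells without overlap (Cldn3, Tjp3 and Cgn) and 4 were lower (Cdh1, Ctnna1, Ctnnb1 and Jup). In ML cells 2 were higher (Cldn3 and Cgn) and 3 were lower (Ctnna1, Pkp2 and Marveld2). Cldn3 stood at 74.8 to 100.2 CPM in replicates 1 and 2 of LP cells and 27.7 to 57.5 CPM in replicates 3 and 4, and at 55.3 to 67.0 CPM and 22.6 to 35.0 CPM in ML cells. Cgn stood at 61.4 to 82.2 CPM in replicates 1 and 2 of LP cells and 26.2 to 39.98 CPM in replicates 3 and 4, and at 57.9 to 70.8 CPM and 31.0 to 52.5 CPM in ML cells. Ctnna1 ran the other way, with 206 to 261 CPM in replicates 1 and 2 of LP cells and 263 to 424 CPM in replicates 3 and 4, and 270.0 to 323 CPM and 339 to 386 CPM in ML cells. The genes and the split were chosen after their values were seen, and the labels give no date or batch for the replicates. The share of all genes that split in this way was not computed, so the counts are not read as particular to junction genes. Each genotype has 2 replicates on either side of this split.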
